A study of Homo sapiens with 4 samples.

Results

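Chromosome 21 genes of FADU cells were compared in 4 RNA-Seq libraries, of which the libraries with TET1 knockdown listed most of these genes at a higher level. The members were the rows of the FPKM table on chromosome 21 with a locus of at least 300 bp, a gene ID on 1 row only and a 4-library mean of 1 FPKM or more. LSS, MX1, MX2, PFKL, GART and NDUFV3 were left out by name. FPKM scales the fragments of a gene by the length of its exons and by the number mapped in the library, so levels were compared per length. Of 716 rows on chromosome 21, 325 were above 0 in a library and 141 were members, of 14585 genes that passed the same filters on all chromosomes. They comprised 109 protein-coding genes, 24 lncRNAs, 4 pseudogenes and 4 genes absent from the annotation used here. The chromosome had been picked from the TET1-si changes of these same libraries. Those changes are therefore given as a description, with no test.

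FADU is an established cell line from a squamous carcinoma of the hypopharynx. The cells had been infected with a lentiviral vector (pLKO.1-puro) that carried either a scrambled control or a short hairpin RNA against TET1 (TET1-si). They were kept at 5% CO2 in normoxia or in hypoxia, which meant 19 h at 1% O2. Each of the 4 groups had 1 library, named N-scr (normoxia, scrambled), N-si (normoxia, TET1-si), H-scr (hypoxia, scrambled) and H-si (hypoxia, TET1-si). Where 4 values follow each other for a gene, they are in this order. A single hairpin sequence stood for the knockdown, and with 1 library per group there was no spread between replicates to set a difference against. In bulk RNA, fewer cells of a type and less RNA per cell cannot be told apart.

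Human chromosome 21 is the smallest autosome by length. Its genes lie mostly on the long arm, with few genes near the centromere and many near the distal end. They include a cluster of interferon and cytokine receptor genes, enzymes of oxidative metabolism, the amyloid precursor gene APP and the transcription factor RUNX1. An extra copy of this chromosome causes Down syndrome, in which many of its genes are expressed above the usual level. TET1 is a dioxygenase that oxidizes 5-methylcytosine to 5-hydroxymethylcytosine, mostly where cytosine is followed by guanine.

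The hairpin sequence is shown because it defines the TET1-si libraries. Its target lies in the last exon of TET1, exon 12 of 12, within the 3' UTR, at chr10:70451833-70451853 (hg19, plus strand). The capitals mark the 21 bases found in that transcript. An exact match was found in transcripts of 1 gene and in 0 of the members.
TET1 target: CCTTGATAGAATCACTCAGTT

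TET1 itself was listed at 0.129 FPKM in N-scr against 0.0493 in N-si, and 0.331 in H-scr against 0.122 in H-si, lower in the TET1-si library of each oxygen state, on approximately 28, 11, 77 and 26 reads. Depth recovered from the values ranged from 22600000 to 24700000 reads per library. Of 8 squamous epithelial markers, 8 were at or above 1 FPKM in both scrambled libraries, 6 in N-si and 7 in H-si. Their summed level, most of which was KRT5, was 3435.7 FPKM in N-scr against 1260.4 in N-si, and 5073.5 in H-scr against 2497.0 in H-si. KRT14, a basal keratin, was listed at 42.1 and 99.9 FPKM in the scrambled libraries (normoxia, hypoxia) and at 0.487 and 1.41 in the TET1-si libraries. The list did not move as a whole, since CDH1 (179.3, 266.9, 291.9 and 398.9 FPKM) and EPCAM (154.5, 205.9, 101.6 and 163.4) were higher with TET1-si in both oxygen states. Fibroblast markers summed to 5.30, 14.1, 28.7 and 37.2 FPKM in the same order, nearly all of it COL1A1, with COL1A2 and LUM at 0 in all 4. Leukocyte markers summed to between 1.80 and 3.62 FPKM with CD3E at 0, and endothelial markers to between 8.93 and 48.4 with PECAM1 at 0. Nearly all of the endothelial sum was CDH5, at 8.75, 21.7, 16.0 and 45.5 FPKM, more than 2-fold higher with TET1-si in both states. The part of these marker differences in the chromosome 21 results was not tested.

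In both oxygen states the chromosome 21 members were listed higher in TET1-si cells. Changes are differences of log2(FPKM + 0.1), so 1 on this scale is 2-fold and a low gene's change is understated. The median change of the 141 members was 0.77 under normoxia (1.70-fold, SD 0.86 over members) and 0.78 under hypoxia (1.72-fold, SD 0.89). Over all genes tested, the medians were 0.16 and 0.10. Relative to all genes, the members' medians were 0.61 and 0.67 higher.

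The median member was at 6.11 FPKM in N-scr against 12.1 in N-si, and 8.39 in H-scr against 12.2 in H-si. Genes of the other chromosomes had medians of 11.8, 13.6, 12.7 and 13.7 FPKM in the same order. The median member thus lay well below the median gene elsewhere in both scrambled libraries, and closer to it in both TET1-si libraries. The members' summed FPKM made up 0.463% of that of all genes tested in N-scr against 0.709% in N-si, and 0.482% in H-scr against 0.708% in H-si.

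The higher level was spread over most members rather than carried by a few. Under normoxia 116 of the 141 were higher in TET1-si cells (82.3%, against 61.2% of all genes tested). Under hypoxia 121 were (85.8%, against 56.9%). In both oxygen states 107 members were higher (75.9%), where 47.2% of all genes tested were. By at least 0.5 in both states, 75 members were higher (53.2%, against 18.5% of all genes) and 3 were lower (2.13%, against 8.93%). At least 2-fold higher were 54 members under normoxia (38.3%, against 11.8% of all genes) and 57 under hypoxia (40.4%, against 11.5%). At least 2-fold lower were 3 under normoxia (2.13%, against 4.81%) and 7 under hypoxia (4.96%, against 7.84%). Since the chromosome was picked on these contrasts, nothing further is read from the comparison with all genes. The 2-fold counts moved with the scaling. Under median-of-ratios scaling, 42 and 46 members were at least 2-fold higher. In that scaling 57.6% of the changed genes of the whole table were higher under normoxia and 49.4% under hypoxia, compared with 71.0% and 59.4% as deposited.

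Reads per gene were approximated from the FPKM, the depth and the length of the canonical transcript. The exact (Clopper-Pearson) 95% interval of the log2 ratio lay above 0 for 104 of 136 members under normoxia (76.5%, against 48.1% of all genes with an interval), below 0 for 12 (8.82%, against 27.9%) and held 0 for 20. Under hypoxia it lay above 0 for 109 of 137 (79.6%, against 45%), below 0 for 14 (10.2%, against 33.3%) and held 0 for 14. These intervals cover counting error only and hold no difference between cultures.

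**Figure D1:**
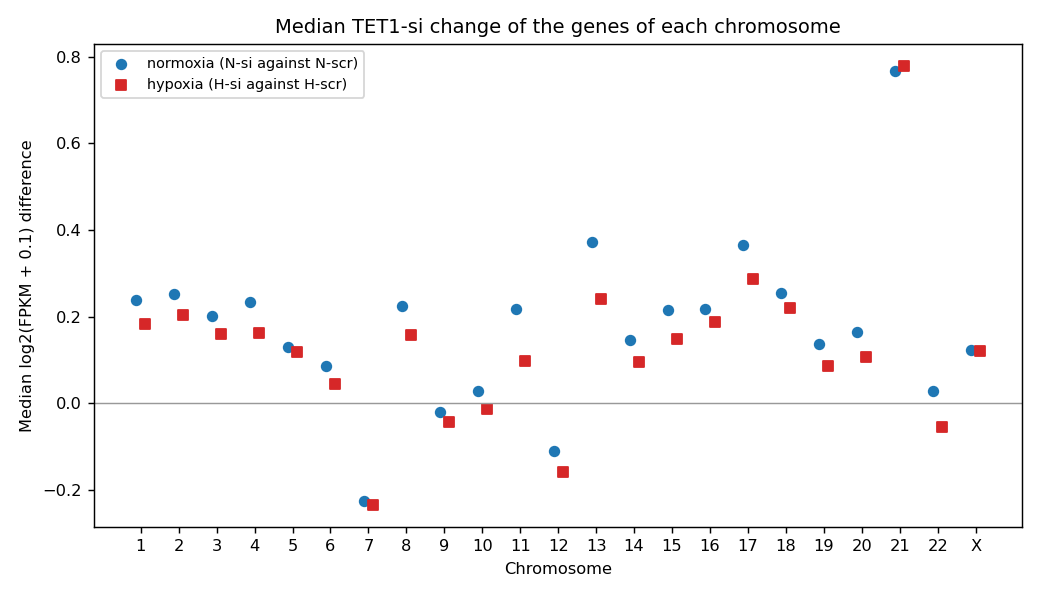
Median TET1-si change of the genes that passed the filters on each chromosome, in log2(FPKM + 0.1), with circles for normoxia and squares for hypoxia, 1 library per group. Chromosome 21 sits at 0.77 and 0.78, and the next highest medians are 0.37 (chromosome 13, normoxia) and 0.29 (chromosome 17, hypoxia).

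Among 23 chromosomes (1 to 22 and X), chromosome 21 had the highest median TET1-si change in both oxygen states. The next was chromosome 13 under normoxia, with a median of 0.37, and chromosome 17 under hypoxia, with 0.29. Chromosome 7 had the lowest medians, at -0.22 and -0.23. The plot of chromosome medians shows chromosome 21 apart from the rest of the range in both comparisons. It had been picked on these comparisons, so its rank is a description only.

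The members were then placed in order along the chromosome to look for edges of the shift. They spanned 38.2 Mb, from TEKT4P2 (ENSG00000188681), a pseudogene that starts at 9907190, to DSTNP1 (ENSG00000230982), a pseudogene that starts at 48073470 (hg19). The 11 members on the centromere side, from TEKT4P2 to the cell adhesion gene NCAM2, had a median TET1-si change of -0.29 under normoxia and 0.32 under hypoxia, with 4 and 7 of the 11 higher. The 130 members from MRPL39, which encodes a mitochondrial ribosomal protein, to the distal end had medians of 0.81 and 0.82, with 112 and 114 higher. This division, called the edge below, was placed after the values were seen and was clearer under normoxia. Under hypoxia the median of the 11 was above that of all genes tested (0.10), of which 56.9% were higher. Under normoxia 61.2% of all genes tested were higher. The 11 had mean levels between 1.34 and 8.90 FPKM, so they held no abundant gene.

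Between NCAM2 and MRPL39 lay 4.04 Mb in which no gene reached the FPKM minimum. That interval held 39 rows of the table, of which 5 were above 0, and the highest value among them was 1.09 FPKM. The position of the edge was therefore not resolved within those 4.04 Mb. Rows below the minimum, with a mean FPKM between 0.1 and 1, showed no such division: the 8 before MRPL39 had median changes of -0.03 and 0.77, and the 67 from MRPL39 on had medians of 0.04 and 0.62.

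**Figure D2:**
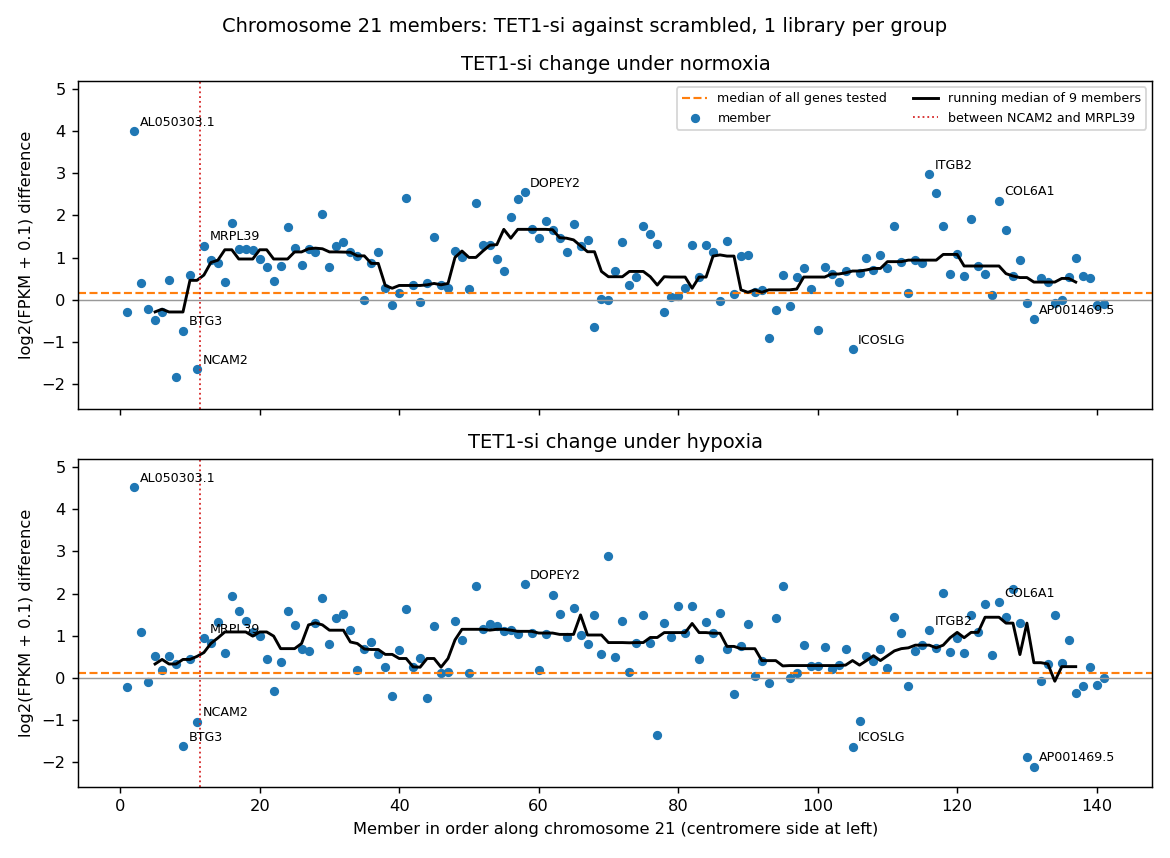
TET1-si change of the 141 members in log2(FPKM + 0.1), against their order along chromosome 21, under normoxia (upper panel) and hypoxia (lower panel). Points are members, the black line is the running median of 9 members, the dashed line is the median of all genes tested (0.16 and 0.10) and the dotted line separates NCAM2 from MRPL39. The running median is highest at 1.67 under normoxia and at 1.49 under hypoxia, and lowest at -0.30 and -0.09.

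From MRPL39 on the median of every 5 Mb interval was above that of all genes tested, to unequal degrees. The medians under normoxia and hypoxia were 0.91 and 0.88 for the 4 members that start between 25 and 30 Mb, and 1.08 and 0.83 for the 30 members between 30 and 35 Mb. Between 35 and 40 Mb the medians were 1.31 and 1.10. There 22 of 23 members were higher under normoxia (all genes 61.2%) and 23 of 23 under hypoxia (all genes 56.9%). The 27 members between 40 and 45 Mb had 0.53 and 0.95, and the 46 members between 45 and 50 Mb had 0.61 and 0.57. The interval from 35 to 40 Mb was thus the highest in both oxygen states.

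A running median of 9 members was at least 0.5 in both oxygen states in 87 of 133 windows (65.4%), against 8.3% of 14248 windows on the other chromosomes. Those chromosomes were not alike, as chromosome 13 had 70 of 225 such windows and chromosome 17 had 244 of 974. Neighbouring windows share most of their members, and the chromosome was picked on these changes, so the counts are a description only. Under normoxia several windows shared the highest median (1.67). They ran from FAM165B to MORC3, and from RUNX1 to SIM2 onward through CBR3 to AP001432.14. The lowest median (-0.30) was shared by the windows from RBM11 to NCAM2, HSPA13 to MRPL39 and NRIP1 to ATP5J. Those ending in MRPL39 and ATP5J crossed the edge. Under hypoxia the highest window ran from HLCS to AF064858.10 (median 1.49), with 1.03 and 1.01 in the windows next to it. The lowest ran from AP001468.1 to PCNT (median -0.09), near the distal end. It held AP001468.1 and AP001469.5, which lie within LSS, a left-out gene with a change of -2.23 under hypoxia. The window from MCM3AP-AS1 to PRMT2, without these rows, had a median of 0.26. Under normoxia the shift was not continuous past the edge. The windows from AP001625.6 to LINC00313 and from WDR4 to RRP1B had normoxia medians of 0.17, near the 0.16 of all genes tested. Their hypoxia medians were 0.69 and 0.40.

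The last 3 members did not share the shift in full. DIP2A, the homolog of a fly disco-interacting protein, was listed at 21.9 FPKM in N-scr against 31.1 in N-si, and 25.6 in H-scr against 30.7 in H-si, a change of 0.50 and 0.26. PRMT2, a protein arginine methyltransferase, was at 112.2, 102.2, 147.5 and 129.4 FPKM in the same order, slightly lower in the TET1-si library of each oxygen state (-0.14 and -0.19). DSTNP1, which lies within the PRMT2 locus, was at 8.50, 7.95, 12.0 and 11.8 FPKM (-0.10 and -0.02). Reads of this pseudogene and of the gene around it cannot be told apart.

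Upstream sequence of 3 members is shown, from the genes on either side of the edge and from a gene in an interval with the highest running median under normoxia. NCAM2 is the last member before the edge, MRPL39 the first after it, and DOPEY2, the ortholog of a yeast gene of Golgi-endosome traffic, lies in the interval from FAM165B to MORC3. Each stretch is the 200 bases before the outermost annotated start, read 5' to 3' on the gene's strand from hg19, at chr21:22370433-22370632 (plus strand), chr21:26979830-26980029 (minus strand) and chr21:37528880-37529079 (plus strand). The capitals mark CG dinucleotides, the main substrate of TET1.
NCAM2: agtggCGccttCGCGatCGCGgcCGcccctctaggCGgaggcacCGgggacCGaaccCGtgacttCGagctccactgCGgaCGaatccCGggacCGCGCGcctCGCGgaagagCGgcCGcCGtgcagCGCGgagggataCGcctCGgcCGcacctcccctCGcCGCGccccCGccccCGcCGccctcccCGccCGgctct
MRPL39: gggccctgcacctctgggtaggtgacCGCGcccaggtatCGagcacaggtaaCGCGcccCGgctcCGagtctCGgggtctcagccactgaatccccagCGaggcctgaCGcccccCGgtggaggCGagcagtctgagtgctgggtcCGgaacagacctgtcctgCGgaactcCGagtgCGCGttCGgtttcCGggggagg
DOPEY2: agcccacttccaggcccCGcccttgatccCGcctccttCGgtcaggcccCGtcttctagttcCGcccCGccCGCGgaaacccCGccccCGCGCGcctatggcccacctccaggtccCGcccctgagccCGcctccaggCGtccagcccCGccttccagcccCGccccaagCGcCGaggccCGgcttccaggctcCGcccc

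The stretch of NCAM2, which was lower in TET1-si cells, held 35 CG dinucleotides. Those of MRPL39 and DOPEY2, which were higher, held 19 and 21. No count over other genes was made at this length, so nothing about the shift is read from these 3 stretches.

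Over whole promoters, defined as 250 bases before to 50 after the canonical start, the members had a median of 30.5 CG dinucleotides and all genes tested a median of 26. A promoter was found for 136 of the 141 members and for 13954 genes. When all genes were divided into 3 classes of CG content, the members' median TET1-si changes were 0.63 (normoxia) and 1.13 (hypoxia) in the lowest class (37 members), 1.13 and 1.01 in the middle class (31 members) and 0.61 and 0.67 in the highest (68 members). The letters ACGTG, the core of the hypoxia response element, stood on either strand in 31.6% of the members' promoters and in 26.0% of all promoters of the same length. The 43 members with these letters had median TET1-si changes of 0.75 and 0.83 and the 93 without them 0.77 and 0.74.

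The next question was which members went beyond the shared shift. A member was called departing when its change differed from the members' median by at least 1 in the same direction in both oxygen states. Departing upward were 6 members (4.26%), where 4.94% of all genes tested departed upward from the median of all genes, and departing downward were 5 (3.55%, against 3.82%). The other 130 stayed within that distance in at least 1 oxygen state.

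The 6 that departed upward were AL050303.1, N6AMT1, C21orf119, FAM165B, DOPEY2 and COL6A1. In AL050303.1, C21orf119 and DOPEY2 the scrambled libraries averaged below 1 FPKM. These genes passed the FPKM minimum only through the TET1-si libraries, so their large ratios partly follow from the filter. With a mean of at least 5 FPKM, 3.23% of 93 members departed in either direction. DOPEY2 (ENSG00000142197, 37529080 to 37666572) was listed at 0.613 FPKM in N-scr against 4.10 in N-si, and 0.640 in H-scr against 3.35 in H-si. Both TET1-si libraries stood well above both scrambled libraries, with ratios of 6.69 and 5.24 and with log2 counting intervals of 2.44 to 3.04 and 2.10 to 2.69. FAM165B (ENSG00000205670, 35747779 to 35780164), which encodes a small membrane protein, was at 4.05, 20.3, 3.99 and 18.5 FPKM in the same order. Its scrambled libraries were alike, and its TET1-si libraries were 5.00-fold and 4.64-fold higher. N6AMT1 (ENSG00000156239, 30244513 to 30257693), a methyltransferase of release factors, was at 1.65, 6.02, 1.50 and 5.99 FPKM, with ratios of 3.66 and 4.0.

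COL6A1 (ENSG00000142156, 47401651 to 47424964), a chain of collagen VI, was at 3.37 FPKM in N-scr against 17.7 in N-si, and 11.6 in H-scr against 40.7 in H-si. It differed from the 3 genes above in that hypoxia went along with a higher level too, and its 4 libraries were set in 4 separate levels. C21orf119 (ENSG00000256073), an lncRNA, was at 0.651, 2.97, 1.08 and 4.28 FPKM on approximately 10, 49, 18 and 65 reads. AL050303.1 (ENSG00000269011, 15051621 to 15053459) was at 0.0268, 1.93, 0.050 and 3.36 FPKM, on approximately 1, 77, 2 and 123 reads. This was the widest TET1-si ratio among the members, 72.0 under normoxia with a log2 counting interval of 3.65 to 11.5, and the gene lay on the centromere side of the edge.

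A further 3 members were among the 8 with the highest mean TET1-si change without departing in both states: ITGB2, DNAJC28 and C21orf67. ITGB2 (ENSG00000160255, 46305868 to 46351904), the beta subunit of leukocyte integrins, was at 5.04 FPKM in N-scr against 40.4 in N-si, and 18.2 in H-scr against 39.8 in H-si. It overlaps the antisense row ITGB2-AS1, with which it can share reads. The TET1-si libraries were alike, while the scrambled libraries differed 3.61-fold between oxygen states. DNAJC28, of the family of J-domain cochaperones, was at 0.154, 1.27, 1.33 and 4.32 FPKM, on approximately 4 reads in N-scr. C21orf67, an lncRNA next to ITGB2, was at 0.754, 2.79, 0.706 and 3.17 FPKM. The scrambled libraries of DNAJC28 and C21orf67 averaged below 1 FPKM, so both passed the FPKM minimum only through the TET1-si libraries.

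**Figure D3:**
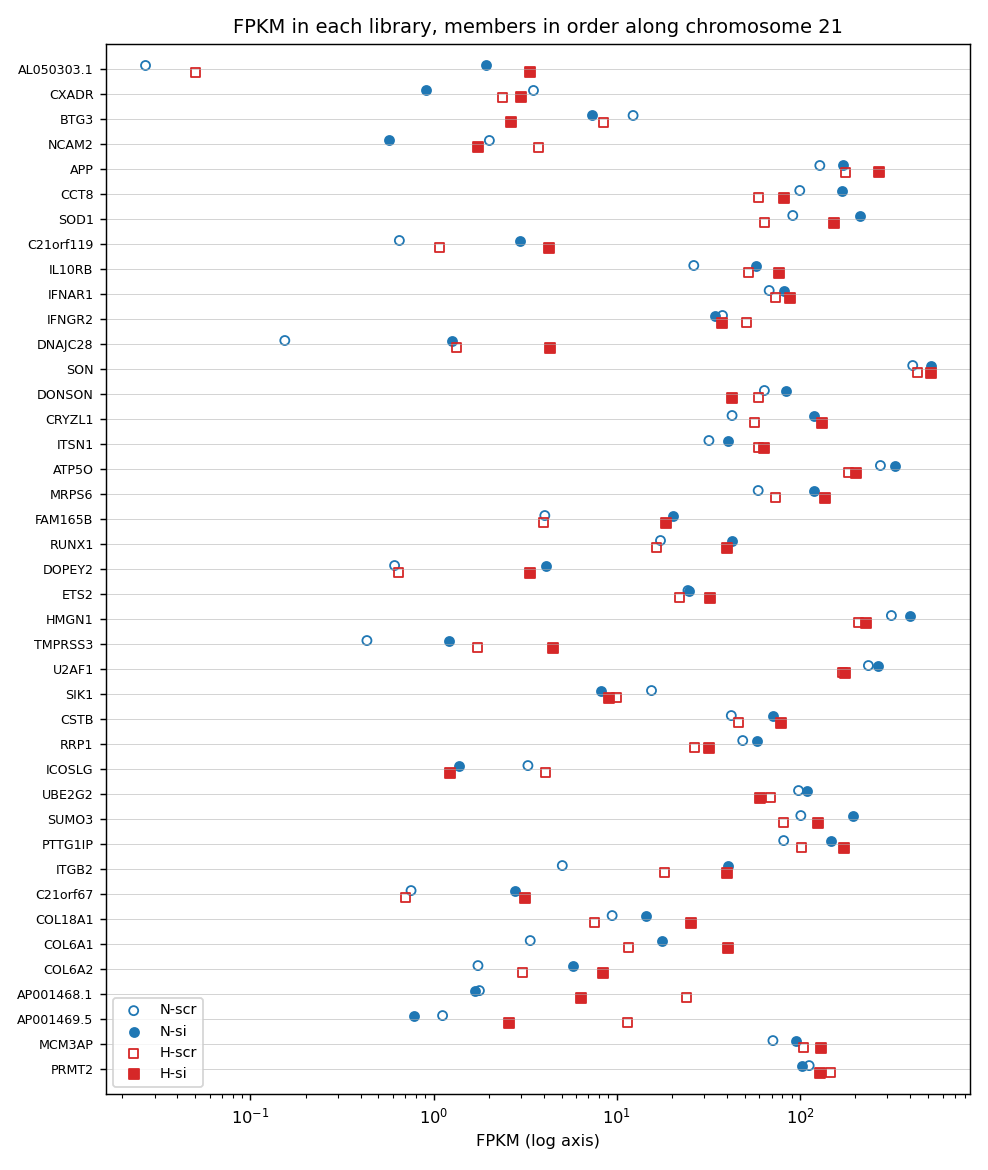
FPKM on a log axis in each of the 4 libraries for the members with the highest and lowest mean TET1-si change and the most abundant members of each gene list, in order along chromosome 21 from top to bottom. Open symbols are scrambled and filled symbols TET1-si libraries, with circles for normoxia and squares for hypoxia. DOPEY2 and FAM165B have both filled symbols to the right of both open ones, NCAM2, BTG3 and ICOSLG have each filled symbol to the left of the open one of its oxygen state, and abundant genes such as SON (412.5 to 520.1 FPKM) have all 4 close together.

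The 5 that departed downward were TEKT4P2, BTG3, NCAM2, ICOSLG and AP001469.5. The first 3 lay before the edge. NCAM2 (ENSG00000154654, 22370633 to 22915650) was listed at 2.02 FPKM in N-scr against 0.568 in N-si, and 3.75 in H-scr against 1.76 in H-si. It was 3.55-fold and 2.14-fold higher in the scrambled libraries, with log2 counting intervals for TET1-si over scrambled of -2.15 to -1.51 and -1.29 to -0.90. BTG3 (ENSG00000154640, 18965971 to 18985265), an antiproliferative gene of the BTG family, was at 12.3, 7.30, 8.47 and 2.66 FPKM, so each TET1-si library was below both scrambled libraries. TEKT4P2 was at 4.79, 3.89, 4.18 and 3.56 FPKM. Its changes of -0.29 and -0.22 were small, and both counting intervals held 0, so it departed from the members' median and not from 0.

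ICOSLG (ENSG00000160223, 45642874 to 45660849), which encodes the ligand of the T-cell costimulator ICOS, went against its neighbours within the shifted interval. It was at 3.27 FPKM in N-scr against 1.38 in N-si, and 4.09 in H-scr against 1.24 in H-si, with each TET1-si library below both scrambled libraries. The ratios of scrambled to TET1-si were 2.37 and 3.31, on between 192 and 693 approximate reads per library. Of the members from MRPL39 on, ICOSLG and AP001469.5 were thus the 2 that departed downward.

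AP001469.5 (ENSG00000223901, 47640183 to 47641992) is an lncRNA on the strand opposite to LSS, which encodes lanosterol synthase of the cholesterol pathway, and lies within the LSS locus (47608360 to 47648738). AP001469.5 was at 1.12 FPKM in N-scr against 0.785 in N-si, and 11.5 in H-scr against 2.57 in H-si, on approximately 12, 9, 137 and 28 reads. AP001468.1 (ENSG00000235878, 47609638 to 47613673) lies within the same locus and was at 1.78, 1.68, 23.9 and 6.40 FPKM. LSS was at 15.7, 11.9, 207.8 and 44.2 FPKM in the same order, so all 3 had their highest value in H-scr and their lowest in N-si. Strand was not stated to be kept in the counting, and reads of LSS and of these rows cannot be told apart.

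The remaining genes among the 8 lowest were CXADR, SIK1 and IFNGR2. CXADR (ENSG00000154639), the coxsackievirus and adenovirus receptor of epithelial tight junctions, was at 3.51 FPKM in N-scr against 0.912 in N-si, and 2.37 in H-scr against 2.99 in H-si. It was lowest in N-si, while the hypoxia libraries differed little. SIK1, a salt-inducible kinase, was at 15.5, 8.22, 9.98 and 9.09 FPKM, with N-scr above the other 3 libraries. IFNGR2, a subunit of the interferon gamma receptor, was at 37.8, 34.3, 50.8 and 37.5 FPKM, a change of -0.14 and -0.44.

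The study had selected genes by 3 inequalities, namely more than 2-fold higher in H-scr than in H-si, higher in H-scr than in N-scr, and no lower in N-scr than in N-si. Of the members 4 met these criteria (2.84%), against 3.57% of all genes tested, namely NCAM2, ICOSLG, AP001468.1 and AP001469.5. All 4 were among the 8 members with the lowest mean TET1-si change. The criteria themselves select for lower levels with TET1-si, so this rank is no separate result.

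**Figure D4:**
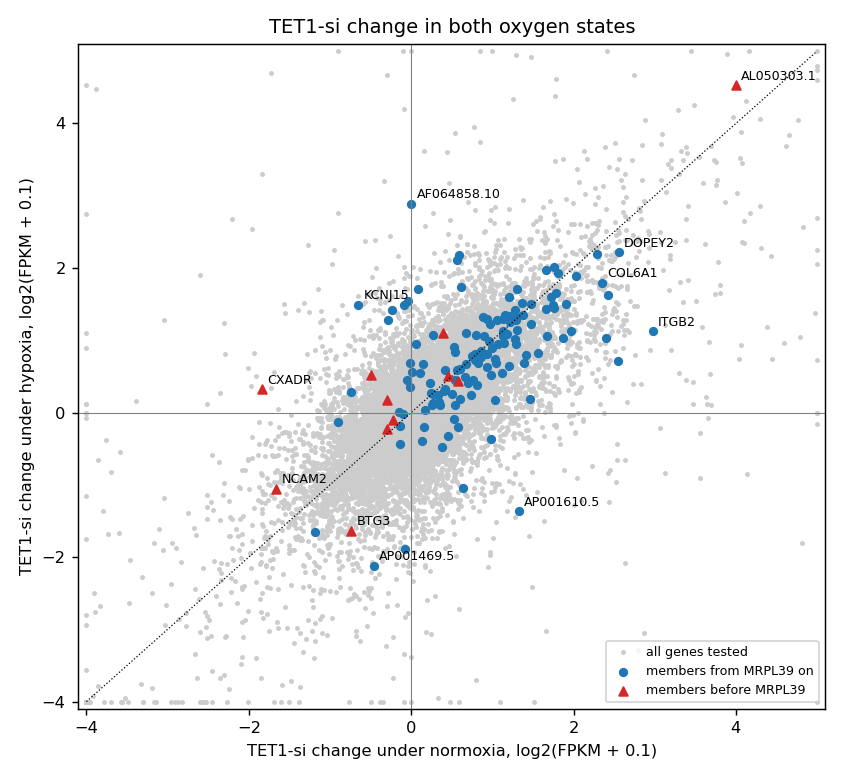
TET1-si change under normoxia (horizontal) against that under hypoxia (vertical), both in log2(FPKM + 0.1), with grey points for all genes tested (drawn at the edge where beyond -4 or 5), blue circles for the 130 members from MRPL39 on and red triangles for the 11 before it. The dotted line marks equal change. The circles gather around 0.8 on both axes, NCAM2 and BTG3 lie low on both, and KCNJ15, CXADR and AP001610.5 lie on opposite sides of 0 on the axes.

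The changes in the 2 oxygen states were set side by side, since these comparisons share no library. Across the 141 members Pearson's r was 0.60 and Spearman's rho 0.59. Across all genes tested both were 0.67. Members are neighbours on 1 chromosome and some share reads, so these values describe the genes and are not a test. The median difference between the changes, hypoxia minus normoxia, was -0.09 for members and -0.06 for all genes tested. The larger change was under hypoxia in 60 of 141 members and in 6461 of 14585 genes tested, a similar share. In opposite directions lay 22 members and lower in both states were 11. No share over all genes was worked out for these counts, so nothing is read from them about the members.

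Members were next grouped by the roles of their products, in 7 lists that together held 99 members. The lists were drawn up from general knowledge with earlier results of these libraries known, and each is described by its counts. By at least 0.5 in both states, 53.2% of all members and 18.5% of all genes tested were higher, which stands beside each such count of a list.

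Receptors and cytokine signalling genes had the lowest median under normoxia of the 7 lists, and under hypoxia a median close to that of RNA processing. Their 13 members had median changes of 0.06 under normoxia and 0.32 under hypoxia, with 3 higher by at least 0.5 in both states and 2 lower. The sign of the normoxia median was not stable, as it was -0.10 under median-of-ratios scaling. IFNAR1, a subunit of the type I interferon receptor, was at 67.9 FPKM in N-scr against 81.8 in N-si, and 73.9 in H-scr against 88.1 in H-si, a small difference in both states. IL10RB, the shared subunit of receptors of the IL-10 family, was at 26.3, 57.5, 52.4 and 76.7 FPKM and was the only 1 of the cytokine receptors IFNAR1, IL10RB and IFNGR2 to reach 0.5 in both states (1.12 and 0.55). These 3 lie side by side in the receptor gene cluster (34638663 to 34851655), so neighbours there differed in the size of their change. IFNAR2 stands under 2 gene IDs that share reads and counts as 2 of the 13. NCAM2, CXADR and ICOSLG are in this list as well.

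Transcription and chromatin genes had medians of 0.93 and 0.77, and 11 of 20 were higher by at least 0.5 in both states. RUNX1, a transcription factor of blood and epithelial cells, was at 17.3 FPKM in N-scr against 42.6 in N-si, and 16.4 in H-scr against 40.1 in H-si. Its TET1-si libraries were alike and both stood above the scrambled libraries, by 1.29 in each oxygen state. ETS2, another transcription factor, was at 24.5, 24.6, 21.96 and 32.3 FPKM, with no difference under normoxia (0.01) and 0.55 under hypoxia. HMGN1, a nucleosome-binding protein, was at 315.5, 400.6, 208.9 and 230.5 FPKM (0.34 and 0.14), and PRMT2 was given above.

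Genes of RNA processing and ribosome biogenesis had medians of 0.41 and 0.32, and 5 of 13 were higher by at least 0.5 in both states. SON, a splicing cofactor and the most abundant member, was at 412.5, 520.1, 435.4 and 516.7 FPKM (0.33 and 0.25). U2AF1, which recognizes the 3' splice site, was at 236.3, 266.1, 171.4 and 176.4 FPKM (0.17 and 0.04). The mRNA export factor MCM3AP had changes of 0.42 and 0.32 and the ribosome biogenesis factor RRP1 0.25 and 0.28. The changes of these 4 were smaller than that of the median member. For U2AF1 under hypoxia the log2 counting interval held 0 (-0.03 to 0.12), and U2AF1 was no longer higher in both states under median-of-ratios scaling. Under median-of-ratios scaling the medians of this list were 0.25 and 0.21.

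Genes of ubiquitin, SUMO and protein folding had medians of 0.76 and 0.61, and 7 of 12 were higher by at least 0.5 in both states. SUMO3, a ubiquitin-like modifier, was at 101.1, 193.7, 81.2 and 126.1 FPKM. CCT8, a subunit of the cytosolic chaperonin, was at 99.7, 169.8, 59.6 and 81.6 FPKM, and CSTB, an inhibitor of cathepsins, at 42.2, 71.2, 46.0 and 79.0 FPKM. UBE2G2, a ubiquitin-conjugating enzyme of endoplasmic reticulum quality control, was at 98.2, 109.6, 69.3 and 60.3 FPKM, and so had changes of 0.16 and -0.20 where the other 3 had between 0.45 and 0.94.

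Mitochondrial and metabolic genes had medians of 1.00 and 0.94, and 15 of 19 were higher by at least 0.5 in both states. As deposited and as TPM, 19 of 19 were higher at all in both states, where 75.9% of members and 47.2% of all genes tested were as deposited. Under median-of-ratios scaling 16 of the 19 were, without PDXK, SLC19A1 and SLC5A3, and the medians were 0.84 and 0.83. SOD1, the cytosolic superoxide dismutase, was at 91.3 FPKM in N-scr against 213.3 in N-si, and 64.1 in H-scr against 152.8 in H-si. MRPS6, of the small mitochondrial ribosomal subunit, was at 59.1, 118.5, 73.9 and 137.5 FPKM. CRYZL1, a quinone oxidoreductase-like gene, was at 42.6, 119.1, 56.5 and 132.2 FPKM. In these 3 genes both TET1-si libraries stood above both scrambled libraries. ATP5O, a subunit of ATP synthase, was at 274.9, 332.1, 183.0 and 201.1 FPKM and differed least of the 4 (0.27 and 0.14).

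Genes of membrane traffic, cytoskeleton and cell division had medians of 0.74 and 0.80, with 10 of 18 higher by at least 0.5 in both states and 1 lower. APP, the amyloid precursor, was at 128.3, 171.2, 178.0 and 269.0 FPKM (0.42 and 0.60). PTTG1IP, a binding partner of securin, was at 81.5, 148.5, 102.1 and 174.2 FPKM (0.86 and 0.77). ITSN1, an endocytic scaffold, was at 31.8, 40.6, 59.4 and 63.6 FPKM (0.35 and 0.10). DONSON, a replication fork factor, was at 63.9, 83.4, 59.3 and 42.5 FPKM, higher in TET1-si cells under normoxia and lower under hypoxia (0.38 and -0.48).

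The list of epithelial, secreted and matrix genes had 4 members, all higher by at least 0.5 in both states, with medians of 1.48 and 1.59. COL6A2, a second chain of collagen VI, was at 1.75, 5.74, 3.05 and 8.43 FPKM, and its libraries ranked as those of COL6A1 did. COL18A1, of basement membranes, was at 9.43, 14.5, 7.59 and 25.6 FPKM. TMPRSS3, a transmembrane serine protease, was at 0.433, 1.21, 1.73 and 4.51 FPKM. Hypoxia went along with higher levels of COL6A1, COL6A2 and TMPRSS3 in both scrambled and TET1-si cells. COL1A1, a fibroblast marker off chromosome 21, was likewise higher with hypoxia and with TET1-si (5.29, 14.0, 28.6 and 37.0 FPKM), and its part in this was not tested.

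The size of the shift varied with the level of the gene. Members in the lowest expression tertile (mean up to 4.82 FPKM, 47 members) had medians of 0.70 and 1.15, where all genes of that range had 0.27 and 0.27. In the middle tertile the members had 0.98 and 0.83 (all genes 0.20 and 0.17), and in the highest, from 19.3 FPKM, 0.57 and 0.55 (all genes 0.09 and 0.01). The 11 members with a mean of at least 100 FPKM had medians of 0.42 and 0.32, while 1306 genes of that level had -0.04 and -0.16. The members were above all genes of their own range in each class.

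Type of gene and overlap made less difference. Protein-coding members had medians of 0.78 and 0.77, and the 32 of other types 0.58 and 0.95. The 54 members that overlapped no other expressed row had medians of 0.79 and 0.81, and the 87 that did 0.74 and 0.69. The medians were thus no smaller without overlap.

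At the FPKM minimum, the members just inside were RPS9P1 (mean 1.01 FPKM, changes of 1.97 and 1.13) and AP001053.11 (mean 1.03, changes of -0.74 and 0.29). Just outside were ABCG1, a sterol transporter (mean 0.945, changes of 1.36 and 1.57), and AP001631.10 (mean 0.930, changes of 2.39 and 1.67).

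Hypoxia was the other axis of the design, and the chromosome had not been picked on it. The members were not neutral on it, since some genes left out by name had large hypoxia changes. In scrambled cells these were 3.72 for LSS, 3.35 for MX1, 4.43 for MX2 and 0.97 for PFKL, with GART (-0.74) and NDUFV3 (-0.49) lower. In scrambled cells the median hypoxia change of the 141 members was 0.09, against 0.06 over all genes tested. In TET1-si cells it was 0.14, against 0.03. At least 2-fold higher under hypoxia were 19 members in scrambled cells (13.5%, against 12.5% of all genes) and 22 with TET1-si (15.6%, against 11.9%). At least 2-fold lower were 6 (4.26%, against 3.85%) and 11 (7.80%, against 8.19%). These shares were near the background. The hypoxia comparisons each share libraries with both TET1-si comparisons.

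**Figure D5:**
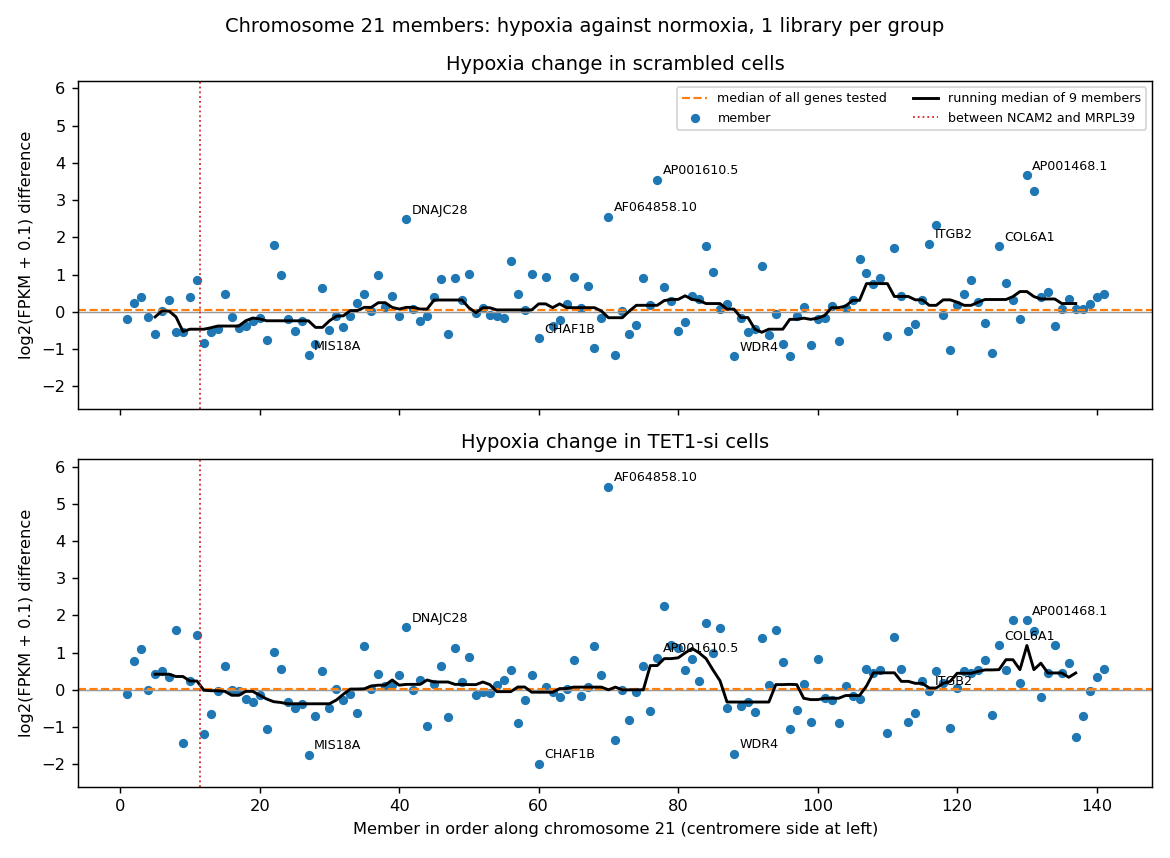
Hypoxia change of the 141 members in log2(FPKM + 0.1) against their order along chromosome 21, in scrambled cells (upper panel) and TET1-si cells (lower panel), drawn as the plot of TET1-si changes. The running median of 9 members (black line) stays between -0.55 and 0.76 in the upper panel and between -0.37 and 1.19 in the lower panel, around the median of all genes (dashed, 0.06 and 0.03). At the dotted line the medians before and after it were 0.03 and 0.09 in scrambled cells, and 0.42 and 0.11 with TET1-si.

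Along the chromosome the running median of the hypoxia change reached 0.5 in 6 of 133 windows in the scrambled comparison and in 19 in the TET1-si comparison. Windows of other chromosomes were not counted for hypoxia, so these counts are not read as more or fewer than elsewhere. The highest window in TET1-si cells, from COL6A1 to AP001469.7 (median 1.19), held the rows inside LSS. The sign of the members' medians was not stable, since for the 109 protein-coding members they were -0.02 and -0.01. The 32 members of other types had medians of 0.57 (scrambled) and 0.56 (TET1-si).

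The 4 members with the highest mean hypoxia change were AF064858.10, AP001468.1, AP001469.5 and AP001610.5, none of them annotated as protein coding. Genes left out by name did not enter this ranking. Of those, LSS changed by 3.72 (scrambled) and 1.89 (TET1-si), above AP001468.1 in both (3.68 and 1.87). MX2 had 4.43 and 1.24, and MX1 had 3.35 and 1.15. AF064858.10 (ENSG00000237609) was listed at 0 in both normoxia libraries, at 0.490 FPKM in H-scr and at 4.28 in H-si, on approximately 1 and 8 reads, so it reached the FPKM minimum through H-si alone. AP001610.5 (ENSG00000228318, 42813321 to 42814669) was at 0.894 FPKM in N-scr against 2.39 in N-si, and 11.6 in H-scr against 4.43 in H-si. It is an lncRNA opposite in strand to MX1, an interferon-induced antiviral GTPase, and lies within the MX1 locus. MX1 was at 7.24, 10.5, 74.6 and 23.3 FPKM, with the libraries ranked alike, and their reads cannot be told apart.

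The 4 with the lowest were CHAF1B, MIS18A, PSMG1 and WDR4. CHAF1B, a subunit of the histone chaperone of replicating chromatin, was at 8.66 FPKM in N-scr against 23.98 in N-si, and 5.26 in H-scr against 6.01 in H-si. MIS18A, which primes centromeres, was at 9.05, 21.02, 3.97 and 6.24 FPKM. PSMG1, a proteasome assembly chaperone, was at 26.2, 41.7, 11.7 and 16.5 FPKM. In these 3 genes both hypoxia libraries lay below both normoxia libraries, and within each oxygen state the TET1-si library lay above the scrambled library. WDR4, a subunit of a tRNA methyltransferase, was at 25.1, 27.5, 10.9 and 8.34 FPKM, lower under hypoxia in both kinds of cell and with little TET1-si change (0.13 and -0.39).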

How the data were processed

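RNA of 4 FADU libraries, 1 per group, was measured as FPKM per gene, deposited by the authors from TruSeq mRNA libraries with 100 bp HiSeq reads, aligned by TopHat/Cufflinks to hg19 with Ensembl annotations. Tool versions, filters and strandedness are not given in the sources used here. The labels describe single-end reads and the study's methods paired-end reads. The table holds 62077 rows, and 232 rows whose gene ID stands on more than 1 row were left out.

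The members and gene lists were chosen with earlier results of these data known. No replicate existed, so no test was run and no p-value is given. Changes are log2(FPKM + 0.1) differences between 2 libraries, and all genes tested passed the same filters. Depth was recovered from 5719 genes with 1 exon, whose FPKM are whole reads over depth and length less an offset of 214 bp. Of the low values between 91.8% and 92.8% were whole within 0.05. The depths were 22900000 and 24700000 reads for N-scr and H-scr, and 24500000 and 22600000 for N-si and H-si. Approximate reads gave the counting intervals. Annotation, transcript lengths and promoter starts came from GENCODE on GRCh37. The analysis used Python 3.11.15, pandas 2.3.3, numpy 2.4.6, scipy 1.17.1 and matplotlib 3.10.9, and was checked on simulated data.

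Genes named were the 3 first and 3 last members, the 8 highest and 8 lowest by mean TET1-si change, all departing members, the 4 most abundant of each list, the 4 highest and 4 lowest by mean hypoxia change, the 2 on either side of the FPKM minimum, and TET1. MRPL39 and the hosts LSS and MX1 were added after values were seen. KCNJ15 was added as a gene with opposite changes. Alternatives were other pseudocounts, FPKM minimums, scalings, gene types and windows, and, chosen after seeing the data, members from MRPL39 on and members without overlap.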

Additional observations from a re-analysis of the deposited data

Results flagged for a closer look

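With 1 library per group, a gene stood out here when its change under the same contrast was at least 0.5 in opposite directions in the 2 states, with both counting intervals clear of 0. The genes looked at were the named genes and those with opposite TET1-si changes of that size. None of these differences was tested.

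CXADR, a tight junction protein, had a hypoxia change of -0.55 (scrambled) and 1.61 (TET1-si), a difference of 2.16. Its N-si library was the lowest of the 4. KCNJ15, a potassium channel gene, was listed at 1.29 FPKM in N-scr against 0.781 in N-si, and 0.613 in H-scr against 1.90 in H-si. Its TET1-si change was -0.65 under normoxia and 1.49 under hypoxia, a difference of 2.14, and its hypoxia change was -0.96 (scrambled) and 1.18 (TET1-si), the same difference of 2.14 because both rest on the same 4 values. AP001610.5, within MX1, had a TET1-si change of 1.32 under normoxia and -1.37 under hypoxia, a difference of -2.69, and the libraries ranked as they did for MX1.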

How the results depend on the processing

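No paired analysis was possible because the groups had 1 library each and the result came from no test. Of 164 values under 11 alternatives, 127 stayed near the reported value, 29 moved and 8 changed sign. Near meant inside the 95% interval of the reported median or share, for a share also within 1.5 times of it, and the same rank for the chromosome. These intervals treat members as independent, although they are neighbours and some share reads. They serve here only as a yardstick and cover no difference between cultures. With a pseudocount of 1, 28.4% of members were 2-fold higher with TET1-si under hypoxia, 0.709% were 2-fold lower under normoxia, 7.09% were 2-fold higher with hypoxia in scrambled cells and 3.55% departed. With a mean FPKM of at least 5 (93 members), TET1-si shares were 29.0% higher and 2.15% lower under hypoxia and 0% lower under normoxia. Hypoxia shares there were 8.60% higher and 6.45% lower in scrambled cells and 6.45% higher and 11.8% lower with TET1-si, 3.23% departed, and the hypoxia medians were -0.0973 and -0.0165. With no filter (315 genes), the TET1-si medians were 0.333 and 0.566, 25.7% and 31.4% were 2-fold higher, 4.76% and 10.5% 2-fold lower and 32.4% higher by 0.5 in both states. Median-of-ratios scaling gave 29.8% 2-fold higher under normoxia. Among protein-coding members, 2.75% were 2-fold lower with TET1-si under hypoxia, 10.1% were 2-fold higher with hypoxia in TET1-si cells, and the hypoxia medians were -0.0211 and -0.00739. Members without overlap had hypoxia medians of -0.153 and -0.00473. Of these, 5.56% were 2-fold lower with TET1-si under normoxia, 7.41% and 13.0% were 2-fold lower with hypoxia (scrambled, TET1-si), and 13.0% departed. From MRPL39 on, 3.85% departed and 0.769% were 2-fold lower under normoxia. With a window of 15 members, the lowest running medians were 0.230 under normoxia and 0.260 under hypoxia, and the highest under hypoxia was 1.15, from FAM165B to AP001432.14. The cause of these moves was not tested. Single libraries and genes near 1 FPKM limit precision.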
